A study of Mus musculus with 36 samples.

Results

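The 9 genes described here make, bind or degrade hyaluronan, or code for proteoglycans of the same lubricating and pericellular layers. They are the hyaluronan synthases *Has1*, *Has2* and *Has3*, the hyaluronidases *Hyal1* and *Hyal2*, the receptor *Cd44*, the hyaluronan-binding proteins *Tnfaip6* and *Vcan*, and *Prg4*, which codes for lubricin. They were picked by gene name, with earlier results of these data known, and are 9 of 53421 genes in the table of read counts. Shares and medians of the members set beside those of all genes are therefore descriptions only. All 9 were also in the table of TPM, a unit scaled for transcript length and library size, and all 9 had counts high enough for a test over the 36 libraries. The cells were a mouse fibroblastic chondrocyte line, conditionally immortalised and wild type, transfected either with a pool of non-targeting siRNA (NT) or with a pool of siRNA against *Ift88* (IFT88siRNA). Each arm was sampled in medium only (0 h) and at 5 times after the addition of IL-1β at 10 ng/ml (1, 2, 4, 8, 24 h), which makes 12 conditions with 3 libraries each. Transfection with an siRNA pool was thus common to all 36 libraries. Medium-only cells were sampled at 0 h only, so that IL-1β and time in culture cannot be told apart. A single cell line was used, and no source used here says that the 3 libraries of a condition came from separate cultures, so that the p-values measure the spread between these libraries, which may be technical.

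Hyaluronan is a long unsulphated sugar chain that synthases in the plasma membrane build from cytosolic nucleotide sugars and extrude directly into the matrix. CD44 anchors the chains to the cell surface, and versican, through its link domain, joins them into the pericellular coat. TSG-6, the product of *Tnfaip6*, transfers heavy chains of inter-alpha-inhibitor onto hyaluronan during inflammation. Hyaluronidases cut the chains into fragments, at the cell surface and in lysosomes. In joints hyaluronan and lubricin together lubricate the cartilage surface, and IL-1β is widely used to model joint inflammation in chondrocyte culture. *Ift88* codes for an intraflagellar transport protein that is needed to build the primary cilium.

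Each library held between 19337022 and 38304127 counted read pairs. *Ift88* stood at 9.06 ± 0.36 CPM (counts scaled to library size, mean ± SD, n = 3) in NT and 2.77 ± 0.16 in IFT88siRNA at 0 h, and was lower in IFT88siRNA at every time (log2 difference −1.71 at 0 h and −2.12 at 2 h, adjusted p = 1.331e-19 over all times). At 8 h the IFT88siRNA library of replicate 3 stood apart from the other pair of its group: *Ift88* had 1.53, 1.59 and 3.0 CPM in replicates 1, 2 and 3 (34, 46 and 87 counts), all below the 6.34 to 7.45 CPM of NT. Over all genes, its chi-square per degree of freedom was 9.06 against replicate 1 and 10.0 against replicate 2, and replicates 1 and 2 had 5.26. Pairs of replicates ranged from 1.65 to that 10.0 over the 12 groups. High values were not confined to this library, with 9.88 for NT replicates 2 and 3 at 2 h. Leaving out replicate 3 of both arms moved the count of genes called between the arms at 8 h from 105 to 422. Leaving out replicate 1 or 2 moved it to 43 or 47. The 8 h differences of the members without replicate 3 are given beside the results, and for some members this is the only omission given. Of the markers of the labelled chondrocyte identity, *Sox9* had 5.98 to 34.6 TPM over the libraries, while the median TPM was 3.15 for *Col2a1*, 0.044 for *Acan* and 0 for *Col9a1*. In all, 4 of 8 chondrocyte markers had a median under 1 TPM against 0 of 7 fibroblast markers. The 8 chondrocyte markers summed to 16.9 to 59.1 TPM in NT and 23.6 to 55.0 TPM in IFT88siRNA libraries, and the 7 fibroblast markers to 643 to 1545 and 698.2 to 1560 TPM. All 4 macrophage markers, all 3 endothelial markers and 1 of 2 epithelial markers had medians under 1 TPM. As in any bulk sample, fewer cells expressing a gene and less RNA per cell cannot be told apart.

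In unstimulated NT cells the receptor was far more abundant than any enzyme, and *Has2* was the most abundant synthase transcript. Per transcript length, *Cd44* stood at 219.6 ± 6.83 TPM (SD, n = 3), *Hyal2* at 36.7 ± 1.06 and *Hyal1* at 21.9 ± 2.08. *Has2* followed at 13.7 ± 1.3 and *Vcan* at 11.4 ± 0.79 TPM. The libraries of *Has2* and *Vcan* did not overlap (12.5 to 15.1 against 10.5 to 12 TPM). *Tnfaip6* stood at 3.45 ± 0.65 TPM, and *Prg4* at 0.82 ± 0.37, *Has3* at 0.56 ± 0.045 and *Has1* at 0.18 ± 0.14 TPM were all near or under 1. The ranges of *Prg4* and *Has3* overlapped in NT. The means ran in the same order in IFT88siRNA cells, where *Cd44* stood at 185.8 ± 5.03 and *Has1* at 0.15 ± 0.079 TPM. In counts, *Has1* had 1 to 56 read pairs in a library, *Has3* 17 to 67 and *Prg4* 17 to 184, so that these 3 are the least precisely measured, whereas *Cd44* had 6956 to 22545.

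**Figure D1:**
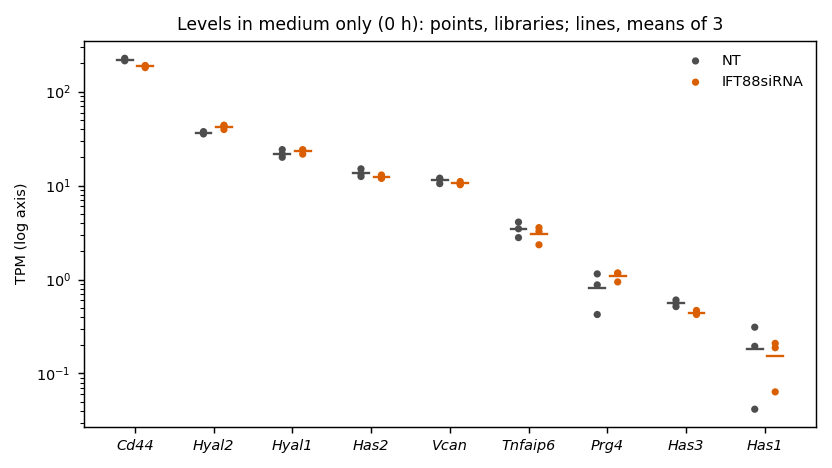
TPM (log axis) of the 9 genes in medium only, with 1 point per library, NT in grey and IFT88siRNA in orange, and lines at the means of 3 libraries. *Cd44* lies above 180 TPM in both arms and *Has1* under 0.4 TPM.

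Promoter sequence was at hand for 6 of the 9 genes (*Has1*, *Hyal1*, *Hyal2*, *Cd44*, *Tnfaip6* and *Vcan*), from RefSeq on GRCm38.p6, and the 250 bases before the start in that table were searched on both strands. For *Tnfaip6*, *Hyal1* and *Hyal2* that start lies inside the gene as the annotation of the coordinates given here draws it. Part of the stretch searched for *Tnfaip6* and *Hyal1*, and all of it for *Hyal2*, thus does too. For *Has1* and *Vcan*, most of the stretch searched lies inside the gene as that annotation or RefSeq draws it. The motifs searched were the AP-1 motif TGANTCA, found in 6.75% of 32851 mouse promoters searched the same way, and the consensus of the κB motif, found in 3.9%. AP-1 and NF-κB are well known to act downstream of IL-1β. The AP-1 motif was present in *Tnfaip6* only, as TGAGTCA, and the κB motif in *Hyal2* only, as GGGAATCCCC, which lies within the annotated gene. For *Has1* and *Vcan* the lack of a match mostly concerns sequence of the gene itself. A match is a run of letters and not a measured binding site. The promoter stretches of 3 members with different responses are shown, with the AP-1 match in capitals: *Tnfaip6* (chr2:52037863-52038008, plus strand), which rose by 1 h, *Cd44* (chr2:102901670-102901915, minus strand), which rose briefly, and *Hyal1* (chr9:107576700-107576926, plus strand), which fell. The stretches end before the first annotated exon, so they show 146, 246 and 227 of the 250 bases searched.
Tnfaip6: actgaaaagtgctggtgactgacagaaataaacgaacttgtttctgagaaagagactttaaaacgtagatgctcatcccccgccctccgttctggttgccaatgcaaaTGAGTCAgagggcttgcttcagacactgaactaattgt
Cd44: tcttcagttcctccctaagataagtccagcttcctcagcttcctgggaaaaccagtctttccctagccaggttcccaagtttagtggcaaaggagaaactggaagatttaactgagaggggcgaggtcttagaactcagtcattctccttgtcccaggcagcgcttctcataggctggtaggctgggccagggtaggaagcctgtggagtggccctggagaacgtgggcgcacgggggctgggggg
Hyal1: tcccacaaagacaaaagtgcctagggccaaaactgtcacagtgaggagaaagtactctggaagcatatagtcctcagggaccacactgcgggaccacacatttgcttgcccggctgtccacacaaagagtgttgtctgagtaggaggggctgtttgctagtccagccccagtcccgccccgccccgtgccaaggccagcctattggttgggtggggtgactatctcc

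The first question was how the genes moved after IL-1β in NT cells. *Has1*, *Has2*, *Cd44*, *Tnfaip6*, *Prg4* and *Vcan* rose, and *Hyal1* and *Has3* fell. A gene was called where its Benjamini-Hochberg adjusted p from edgeR's quasi-likelihood test was under 0.05 and its change exceeded 1.5-fold. Over the whole course 8 of the 9 genes were called, 6 up and 2 down, where 50% of the 16048 genes tested were called. The share of all genes called at 1 h was 18.7%, and only *Tnfaip6* among the 9 was called. At 2 h 5 of 9 were called, all up, against 27.3% of all genes, and at 4 h 7 of 9, 6 up and 1 down, against 28.7%. At 8 h 6 of 9 were called (5 up, 1 down) against 19.7%, and at 24 h 5 of 9 (3 up, 2 down) against 16.3%. The median log2 change of the 9 at 4 h was 1.43, beside −0.016 for all genes tested. The comparisons at the 5 times share the same 3 libraries at 0 h.

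**Figure D2:**
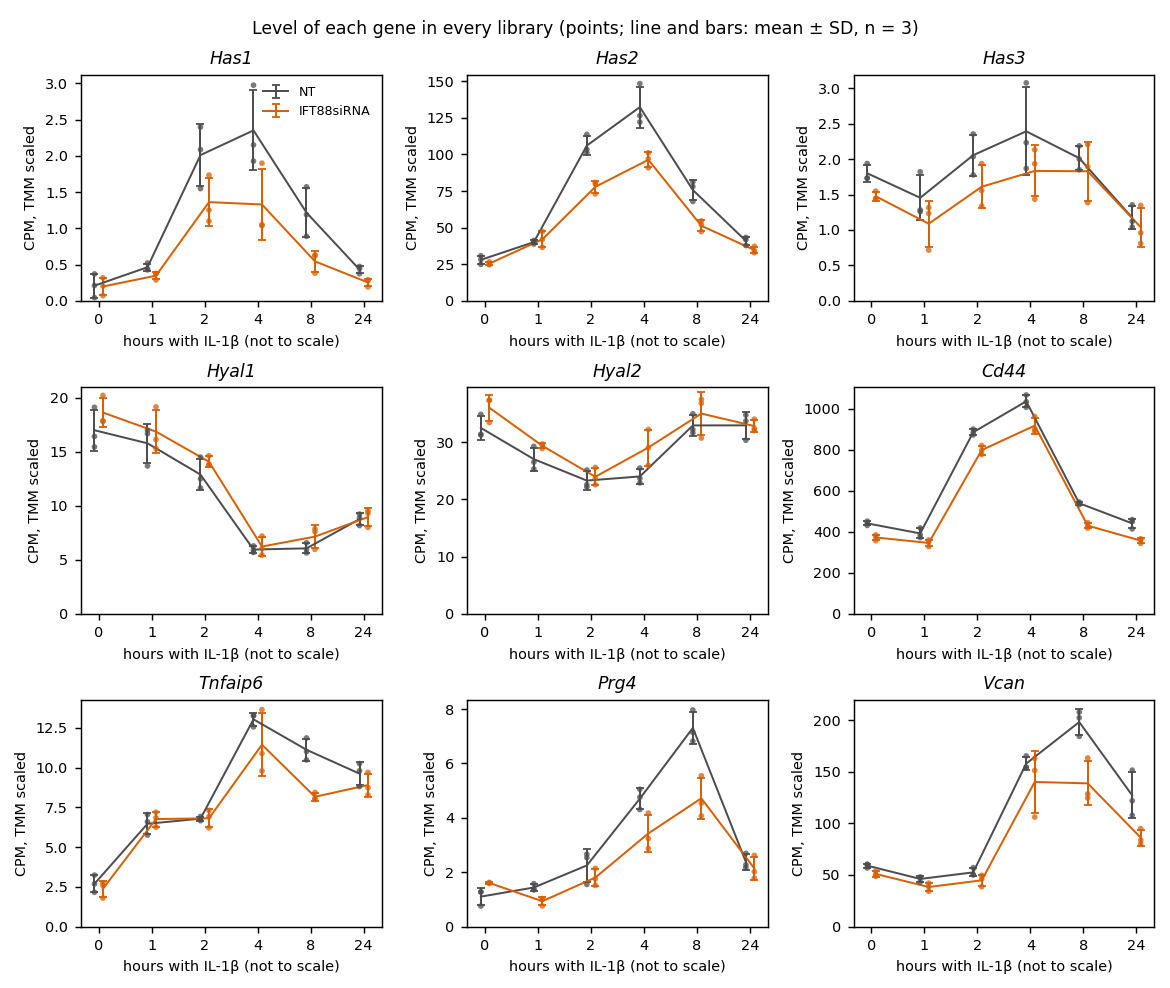
CPM of each gene (TMM scaled, linear axis from 0) against hours with IL-1β, with 1 point per library and lines and bars giving mean ± SD of 3 libraries, NT in grey and IFT88siRNA in orange. *Has1*, *Has2*, *Cd44* and *Tnfaip6* are highest at 2 or 4 h in both arms, *Prg4* is highest at 8 h, and *Hyal1* is lowest at 4 h in both arms.

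Among the synthases, *Has2* (ENSMUSG00000022367, chr15:56665627-56694539, minus strand, GRCm38) carried the response. *Has2* makes the bulk of hyaluronan in most connective tissues. Its level in the 3 NT libraries at 0 h was 24.9, 30.8 and 28.2 CPM. At 2 h it was 103.4, 101.1 and 113.7 CPM, and at 4 h 126.5, 148.4 and 122.1 CPM. All libraries at 2 and 4 h thus lay above all at 0 h by a wide gap. The log2 change was 1.92 ± 0.083 (SE) at 2 h, 2.25 ± 0.083 at 4 h (adjusted p = 1.404e-17) and 1.44 ± 0.084 at 8 h. *Has2* was still above its starting level at 24 h (37.8 to 43.3 CPM, log2 change 0.55, adjusted p = 1.098e-05), but by less than the 1.5-fold threshold. In TPM its mean rose from 13.7 to 55.1 at 4 h.

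*Has1* (ENSMUSG00000003665, chr17:17843323-17855205, minus strand) had the larger relative rise from a far lower base. Its level was 0.21, 0.37 and 0.044 CPM at 0 h and 2.15, 1.93 and 2.98 CPM at 4 h, which corresponds to 1 to 9 and 38 to 56 read pairs. The groups did not overlap. On the log2 scale it changed by 3.21 ± 0.37 at 2 h, 3.44 ± 0.36 at 4 h (adjusted p = 1.017e-08) and 2.47 ± 0.40 at 8 h. Even at its highest, *Has1* stood at 1.81 ± 0.40 TPM, beside 55.1 ± 5.11 TPM for *Has2* in the same libraries. *Has3* (ENSMUSG00000031910, chr8:106870242-106884566, plus strand), the synthase known for making shorter chains, did not share in this rise. It stood at 1.73, 1.94 and 1.73 CPM at 0 h and 1.87, 3.08 and 2.23 CPM at 4 h, and these groups overlapped. At 24 h its 3 libraries (1.12, 1.04 and 1.36 CPM) were all below those at 0 h, with a log2 change of −0.61 ± 0.21 (adjusted p = 0.02005). That fall was lost without replicate 1 (adjusted p = 0.1028), without replicate 2 (0.1462), with DESeq2 (0.05237) and without the filter on low counts, where the change of −0.57 was under the fold threshold.

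*Hyal1* (ENSMUSG00000010051, chr9:107576927-107581710, plus strand), an acid-active lysosomal hyaluronidase, fell late and stayed low. The NT libraries had 19.1, 16.4 and 15.4 CPM at 0 h, 5.66, 5.88 and 6.27 CPM at 4 h, and 5.63, 5.95 and 6.56 CPM at 8 h. At 24 h they had 8.86, 9.22 and 8.16 CPM, still below every 0 h library. The log2 change was −0.40 ± 0.096 at 2 h, −1.51 ± 0.11 at 4 h (adjusted p = 1.382e-11), −1.48 ± 0.11 at 8 h and −0.96 ± 0.098 at 24 h. Of its 3777 exonic bases 50.8% are shared on the same strand with the neighbouring *Nat6* (*Naa80* in newer annotation). Read pairs that overlap both genes are by default left out of the counts, so the count of *Hyal1* is uncertain. *Nat6* itself fell, by 0.91 ± 0.066 on the log2 scale at 4 h and by 0.76 ± 0.063 at 8 h, and the part of *Nat6* in the fall of *Hyal1* was not tested. *Hyal1* TPM, which assigns shared reads by a model, fell from 21.9 ± 2.08 to 5.93 ± 0.24 at 4 h.

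*Hyal2* (ENSMUSG00000010047, chr9:107567945-107572779, plus strand) lies next to *Hyal1* and codes for a membrane-anchored hyaluronidase that starts the breakdown of long chains. Its levels were 31.3, 31.4 and 34.9 CPM at 0 h, 25.2, 22.6 and 22.2 CPM at 2 h and 35.0, 31.7 and 32.2 CPM at 8 h. The libraries at 2 h were all below those at 0 h, and those at 8 h overlapped with them. The log2 change of −0.49 ± 0.071 at 2 h had an adjusted p of 2.325e-06 but was smaller than 1.5-fold, so *Hyal2* was the 1 member not called in NT. At 8 h the log2 change was 0.023, with a 95% interval from −0.11 to 0.16.

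*Cd44* (ENSMUSG00000005087, chr2:102811141-102901665, minus strand) had a short response. The NT libraries had 430.9, 451.7 and 440.5 CPM at 0 h, 883.9, 872.9 and 901.4 CPM at 2 h, and 1068, 1035 and 1008 CPM at 4 h. By 8 h they had 545.0, 532.4 and 540.1 CPM, and at 24 h 449.6, 459.2 and 414.1 CPM, a range that held the 0 h values. The log2 change was 1.0 ± 0.045 at 2 h and 1.24 ± 0.045 at 4 h (adjusted p = 1.221e-17). At 8 h it was 0.29 ± 0.045 and at 24 h 0.00 ± 0.045 (95% interval −0.088 to 0.088).

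*Tnfaip6* (ENSMUSG00000053475, chr2:52038009-52056686, plus strand) was the 1 member called by 1 h, and it stayed high to 24 h. Its 3 NT libraries had 2.16, 2.68 and 3.24 CPM at 0 h and 7.05, 6.60 and 5.76 CPM after 1 h. They had 12.6, 13.3 and 13.3 CPM at 4 h and 9.80, 8.81 and 10.3 CPM at 24 h. Every library with IL-1β lay above every library without. Its log2 change was 1.26 ± 0.13 at 1 h (adjusted p = 1.198e-08), 2.29 ± 0.12 at 4 h (1.001e-14) and 1.84 ± 0.12 at 24 h (2.021e-12).

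*Vcan* (ENSMUSG00000021614, chr13:89655312-89742509, minus strand) and *Prg4* (ENSMUSG00000006014, chr1:150449412-150466165, minus strand) had their highest means at 8 h. *Vcan* had 59.9, 60.5 and 56.7 CPM at 0 h and lower values of 43.2, 48.0 and 47.1 CPM at 1 h, a log2 difference of −0.36 ± 0.088 that stayed under 1.5-fold. It then stood at 154.3, 154.1 and 165.3 CPM at 4 h, at 207.8, 202.3 and 184.3 CPM at 8 h and at 151.5, 107.7 and 121.9 CPM at 24 h. The libraries from 4 h on did not overlap with those at 0 h. The log2 change was 1.43 ± 0.083 at 4 h, 1.75 ± 0.083 at 8 h (adjusted p = 4.817e-15) and 1.11 ± 0.082 at 24 h. *Prg4* had 1.27, 1.28 and 0.75 CPM at 0 h, 4.76, 5.05 and 4.30 CPM at 4 h, and 7.96, 7.14 and 6.82 CPM at 8 h, again without overlap. Its log2 change was 1.01 ± 0.22 at 2 h, 2.1 ± 0.20 at 4 h, 2.72 ± 0.18 at 8 h (adjusted p = 3.571e-12) and 1.1 ± 0.21 at 24 h. The call for *Prg4* at 2 h was lost when log2(TPM + 1) was tested with limma in place of counts (log2 change 0.27, adjusted p = 0.2824).

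The other members share few exonic bases with neighbours. *Has2* shares 4.3% with the antisense *Has2os* (18 to 58 counts), *Has3* 5.52% with *Chtf8* (2883 to 8504 counts) and *Prg4* 4.77% with *Tpr* (4781 to 9846 counts), each on the opposite strand. The counting did not use strand, so reads from these stretches cannot be told apart. In NT *Has2os* and *Tpr* were not called. *Chtf8* had a log2 difference of −0.43 at 2 h, under the fold threshold, and 0.05 at 4 h. Between the arms *Tpr* was lower in IFT88siRNA, by 0.16 at 8 h (adjusted p over the 6 times together = 0.00127). *Chtf8* was higher, by 0.15 at most (0.003266), and *Has2os* did not pass (0.8985). None of these was called, and their part in the differences of the members was not tested. *Has1*, *Hyal2*, *Cd44*, *Tnfaip6* and *Vcan* share none, and *Hyal1* shares a further 4.21% with *Hyal3* (2 to 16 counts).

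The time course was then examined in IFT88siRNA cells, where the 6 genes that rose in NT also rose. Over the course 8 of 9 were called, 6 up and 2 down, against 48.2% of the 16129 genes tested. *Has1*, *Has2*, *Cd44*, *Tnfaip6*, *Prg4* and *Vcan* rose and *Hyal1* and *Hyal2* fell, while *Has3* did not pass the fold threshold (log2 difference −0.53 at 24 h, adjusted p = 0.08659 at that time). At 1 h 3 of 9 were called against 15.1% of all genes: *Has2* and *Tnfaip6* rose and *Prg4* fell. At 2 h 5 were called (4 up, 1 down) against 25.6%, at 4 h 7 (6 up, 1 down) against 29.3%, at 8 h 6 (5 up, 1 down) against 17.6%, and at 24 h 3 (2 up, 1 down) against 14.2%.

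In these cells *Has2* stood at 24.7, 26.7 and 24.9 CPM at 0 h and at 97.1, 101.1 and 90.9 CPM at 4 h, with no overlap (log2 change 1.92 ± 0.077, adjusted p = 1.198e-16). *Has1* stood at 0.20, 0.32 and 0.071 CPM at 0 h and 1.25, 1.1 and 1.74 CPM at 2 h (log2 change 2.76 ± 0.38). Its rise at 8 h (1.43 ± 0.44, adjusted p = 0.009567) was lost without replicate 1 (adjusted p = 0.07508) or replicate 3 (0.1484). *Cd44*, at 384.6, 356.8 and 375.7 CPM at 0 h, reached 889.5, 963.2 and 902.5 CPM at 4 h (log2 change 1.3 ± 0.050). These receptor and synthase libraries at 2 or 4 h all lay above those at 0 h.

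*Tnfaip6* changed by 1.5 ± 0.15 at 1 h and 2.26 ± 0.14 at 4 h on the log2 scale, and *Hyal1* by −1.59 ± 0.11 at 4 h. *Vcan* stood at 50.4, 53.9 and 48.7 CPM at 0 h and at 151.2, 106.1 and 162.9 CPM at 4 h (log2 change 1.46 ± 0.12), and its libraries at 4 h spread more widely than in NT. *Prg4* fell at 1 h before it rose. It had 1.6, 1.58 and 1.62 CPM at 0 h, 0.76, 1.01 and 1.03 CPM at 1 h, and 5.55, 4.54 and 4.07 CPM at 8 h. All 3 libraries at 1 h were below and all 3 at 8 h above those at 0 h. The log2 change was −0.78 ± 0.23 at 1 h (adjusted p = 0.009111), 1.1 ± 0.19 at 4 h and 1.54 ± 0.18 at 8 h. The fall of *Prg4* at 1 h was lost without replicate 1 (adjusted p = 0.08715). That of *Hyal2* at 2 h (−0.59 ± 0.078) lies just past the fold threshold and was lost without replicate 2 (−0.53) or replicate 3 (−0.56).

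**Figure D3:**
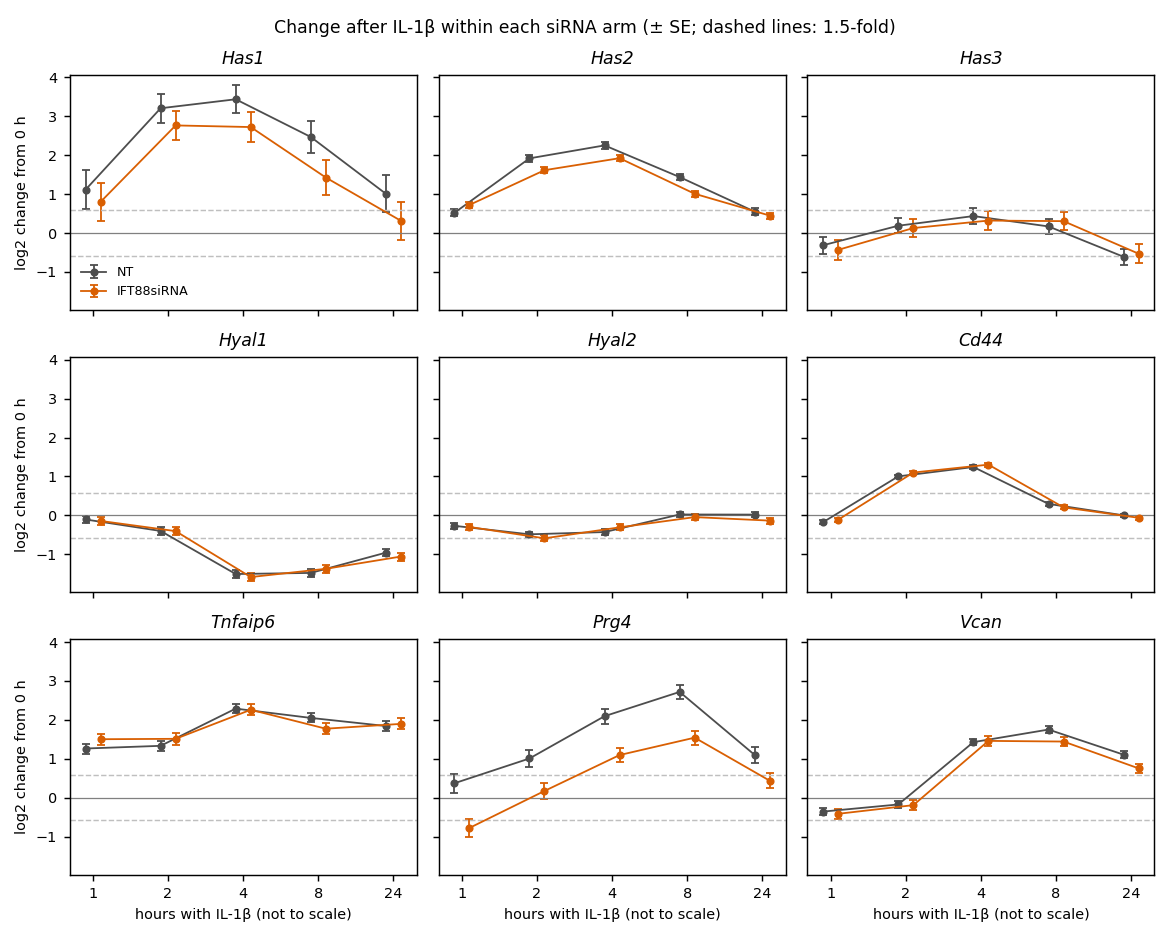
Fitted log2 change from 0 h (± SE) against hours with IL-1β, NT in grey and IFT88siRNA in orange, with dashed lines at 1.5-fold. *Has1*, *Has2*, *Cd44*, *Tnfaip6*, *Prg4* and *Vcan* pass the upper line at 4 h in both arms and *Hyal1* passes the lower one, and *Prg4* lies lower in IFT88siRNA at each of the 5 times.

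The next question was whether the level of these genes differed between IFT88siRNA and NT cells. Most differences were small and most were toward lower levels in IFT88siRNA, with the largest median of the 9 at 8 h. The largest single difference was that of the low-count *Has1* at 8 h, at −1.15 ± 0.33 on the log2 scale. Over the 6 times together, 2 of 9 genes were called, *Has1* and *Prg4*, both lower, against 5.19% of the 16710 genes tested. Without the fold threshold, 7 of 9 passed an adjusted p of 0.05 against 31.8% of all genes, 6 of them (*Has1*, *Has2*, *Cd44*, *Tnfaip6*, *Prg4* and *Vcan*) lower and *Hyal2* higher in IFT88siRNA. The median log2 difference of the 9 at 8 h was −0.44, beside 0.007 for all genes. *Has3* (log2 difference −0.41 at most, 95% interval −0.89 to 0.082, adjusted p = 0.203) and *Hyal1* (0.24 at most, −0.0013 to 0.49, adjusted p = 0.3905) did not pass. Their intervals do not show that the arms were alike.

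Taken time by time, with the 3 libraries of each arm, no member was called at 0, 1, 2, 4 or 24 h with edgeR, with DESeq2 or with limma on log2(TPM + 1). The shares of all genes called were 2.23% at 0 h, where *Has1* was too low to be tested, 2.66% at 1 h, 0.496% at 2 h, 0.432% at 4 h and 1.15% at 24 h. At an unadjusted p under 0.05 edgeR had 4 of 8 members at 0 h, 3 of 9 at 1 h, 4 at 2 h, 5 at 4 h and 4 at 24 h. At 8 h 1 member, *Prg4*, was called against 0.692% of all genes, and 6 had an unadjusted p under 0.05. The shares of all genes at the unadjusted threshold were not computed, and they are at least the shares by adjusted p given next. The unadjusted counts are thus no result about the members. By adjusted p alone, 2 members passed at 0 h (19.5% of all genes) and the same 2, *Cd44* and *Vcan*, at 1 h (19%). *Has2* alone passed at 2 h (2.76%), *Has2* and *Cd44* at 4 h (3.85%), 5 members at 8 h (4.25%) and *Has2*, *Cd44* and *Vcan* at 24 h (8.66%).

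*Has2* was lower in IFT88siRNA from 2 h on. The NT and IFT88siRNA libraries overlapped at 0 h and at 1 h. At 2 h the IFT88siRNA libraries had 80.9, 73.0 and 79.6 CPM, beside 101.1 to 113.7 in NT. At 8 h they had 54.6, 52.0 and 47.3 CPM, beside 81.2, 78.1 and 67.9 in NT, and at 24 h 37.3, 34.1 and 32.8, beside 43.3, 41.7 and 37.8. The arms did not overlap at 2, 4, 8 or 24 h. The log2 difference was −0.14 ± 0.069 at 0 h (adjusted p = 0.1626), −0.45 ± 0.058 at 2 h (0.003517), −0.47 ± 0.065 at 4 h (0.0005846), −0.58 ± 0.073 at 8 h (0.001895) and −0.24 ± 0.063 at 24 h (0.0242). The value at 8 h sat at the edge of the fold threshold, and *Has2* was called there without replicate 3 (−0.61, adjusted p = 0.0002296).

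*Cd44* was lower in IFT88siRNA at every time, with no overlap between the arms at any of the 6 times. At 0 h the arms had 430.9 to 451.7 and 356.8 to 384.6 CPM, a log2 difference of −0.25 ± 0.040 (adjusted p = 0.0001192). At 8 h the IFT88siRNA libraries had 444.0, 418.1 and 427.9 CPM (−0.34 ± 0.047, adjusted p = 0.002986), and at 24 h 365.6, 360.6 and 343.7 CPM (−0.31 ± 0.051, 0.001159). The difference was thus present before IL-1β and was under the fold threshold throughout.

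*Vcan* had no overlap between the arms at any time but 4 h. The log2 difference was −0.21 ± 0.050 at 0 h (adjusted p = 0.004249), −0.53 ± 0.096 at 8 h (0.01397) and −0.57 ± 0.093 at 24 h (0.001231). At 8 h the IFT88siRNA libraries had 128.5, 124.5 and 163.2 CPM, and the third of these lay apart from the other pair. This is the library with the higher *Ift88* level, whose part in the result was not tested. Without replicate 3 the 8 h difference was −0.73 and was called (adjusted p = 2.947e-05), and without replicate 1 or 2 it was −0.43 with adjusted p = 0.1855 and 0.2334. Of the 6 times, *Tnfaip6* passed the adjusted p at 8 h alone, where IFT88siRNA had 8.43, 8.0 and 8.07 CPM beside 11.9, 11 and 10.5 in NT (−0.46 ± 0.090, adjusted p = 0.01846). Without replicate 3 the 8 h difference was −0.51 for *Tnfaip6* (adjusted p = 0.02009) and −0.35 for *Cd44* (0.003454), neither called.

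*Prg4* and *Has1*, the members called over the course, are both low in counts. At 8 h *Prg4* had 5.55, 4.54 and 4.07 CPM in IFT88siRNA and 7.96, 7.14 and 6.82 in NT, without overlap, and the log2 difference was −0.65 ± 0.13 (adjusted p = 0.02079). That call was lost without replicate 1 (adjusted p = 0.1006), without replicate 2 (0.2367) and with limma on log2(TPM + 1) (−0.52, 0.1882), and it held without replicate 3 (−0.62, 0.0256). At 0 h *Prg4* lay the other way, at 1.58 to 1.62 CPM in IFT88siRNA above 0.75 to 1.28 in NT (0.53 ± 0.22, adjusted p = 0.0866). *Has1* had 0.63, 0.38 and 0.62 CPM in IFT88siRNA at 8 h, or 11 to 18 read pairs, and 1.57, 1.19 and 0.89 CPM in NT, or 24 to 33 read pairs. Its log2 difference there was −1.17 ± 0.32 (adjusted p = 0.06668 in these 6 libraries), and without replicate 3 it was called (−1.5, adjusted p = 0.02295). Over the 6 times its adjusted p was 0.004526, rising to 0.07774 without replicate 1 and 0.09925 without replicate 2.

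**Figure D4:**
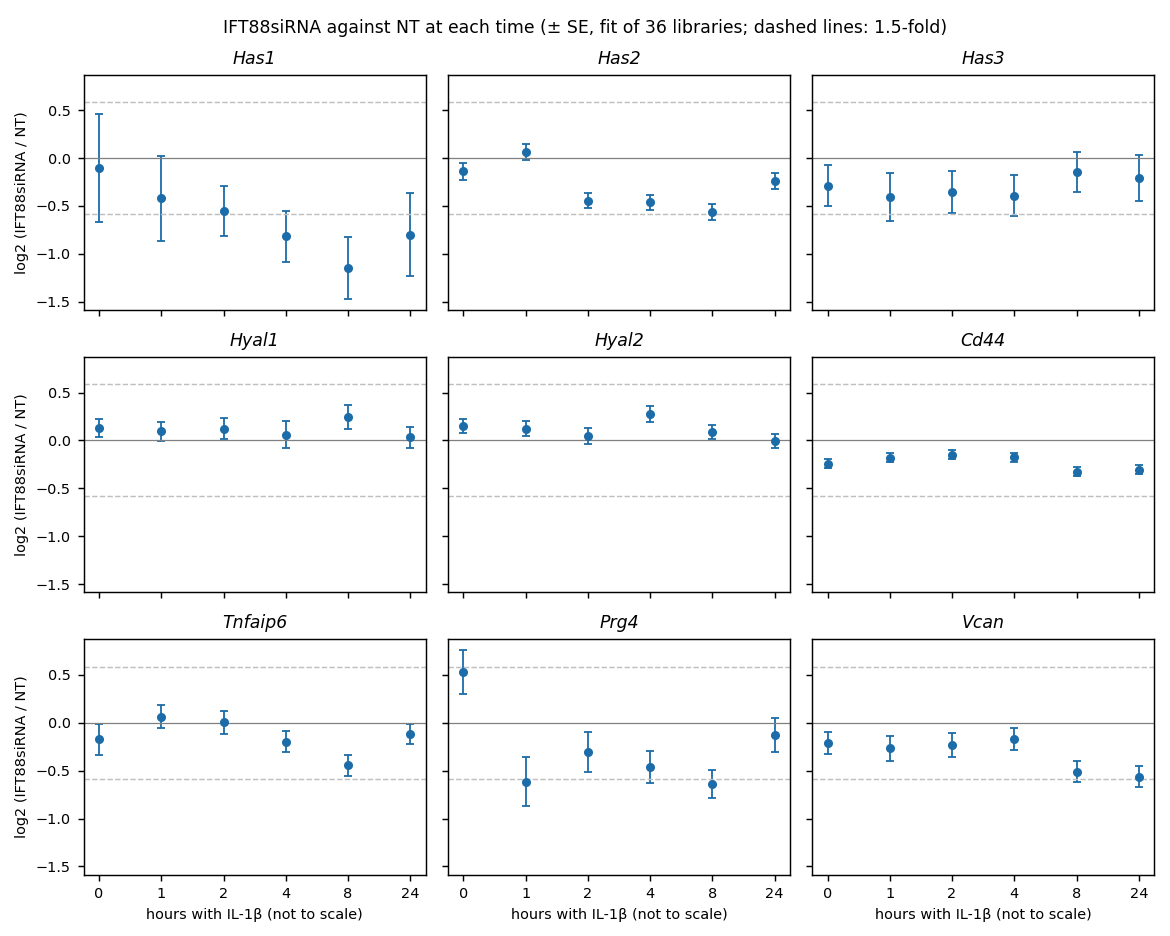
Fitted log2 difference between IFT88siRNA and NT (± SE, all 36 libraries in 1 model) against hours with IL-1β, with dashed lines at 1.5-fold. *Cd44* and *Vcan* lie below 0 at all 6 times, *Has2* at each time but 1 h, and *Prg4* lies above 0 at 0 h and below it at each later time.

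The last comparison asked whether the change after IL-1β itself differed between the arms, as a difference of log2 changes. No member was called over the 5 later times together, against 1.2% of all genes. At an unadjusted p under 0.05 edgeR had 3 (*Has2*, *Cd44* and *Prg4*), and the share of all genes at that threshold was not computed. DESeq2 called 1, *Prg4*. By adjusted p alone 1 member passed against 5.53% of all genes: *Has2*, whose rise was smaller in IFT88siRNA at 2 h (−0.31 ± 0.12), 4 h (−0.32 ± 0.12) and 8 h (−0.42 ± 0.12), with adjusted p = 0.002715 for the 5 times together and 0.09901 at 8 h alone. Without replicate 1 the joint adjusted p was 0.1999 and without replicate 2 it was 0.06226. *Prg4* was the 1 member called at 8 h alone, against 0.275% of all genes, with a rise that was smaller in IFT88siRNA by 1.17 ± 0.27 on the log2 scale (adjusted p = 0.01943, joint adjusted p = 0.05331). Without replicate 1, 2 or 3 its adjusted p at 8 h was 0.1044, 0.07365 and 0.3079. Each change is taken from the 0 h libraries of its own arm, where *Prg4* stood higher in IFT88siRNA, as given above. For *Cd44* the difference of changes was between −0.083 and 0.095 at the 5 times, and the largest had a 95% interval from −0.032 to 0.22. For *Hyal1* it was between −0.099 and 0.11.

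Ranking the 12 conditions by mean level gave the same leading condition, NT at 4 h, for *Has1*, *Has2*, *Has3*, *Cd44* and *Tnfaip6*. For *Has2* the first condition (132.3 CPM) stood clear of the next, NT at 2 h (106.1 CPM), while the latter overlapped with IFT88siRNA at 4 h (96.3 CPM). *Has2* in IFT88siRNA at 0 h (25.4 CPM) overlapped with NT at 0 h (28.0 CPM) at the bottom. For *Has1* and *Has3* almost all neighbours overlapped. Across the 12 condition means, the gene whose pattern was most like *Has1* among all genes tested was *Has2* (Pearson r = 0.99), and the next after *Has1* for *Has2* was *Gnl1* (0.98). *Cd44* was most like *Otud7b* (0.99), *Tnfaip6* most like *Ch25h* (0.98), *Vcan* most like *Slfn4* (0.99), *Prg4* most like *Epb41l3* (0.95), *Hyal1* most like *Celf5* (0.99), *Hyal2* most like *Taf6* (0.97) and *Has3* most like *2900026A02Rik* (0.95). Among the members, *Prg4* and *Vcan* followed each other (r = 0.90), and *Hyal1* ran opposite to *Vcan* (−0.95) and *Prg4* (−0.91). These correlations are over 12 points that share libraries and scaling, and they are descriptions only.

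The wider hyaluronan machinery was examined through 35 further genes grouped by role, also chosen with earlier results of these data known. In NT, 24 had counts high enough for a test and 19 were called, 15 up and 4 down, against the 50% of all genes given above. Of the genes for the nucleotide sugar precursors, 4 of 7 tested rose. *Ugdh*, which makes UDP-glucuronic acid, rose by 1.04 ± 0.041 on the log2 scale at 4 h, and *Uap1*, which makes UDP-N-acetylglucosamine, by 1.28 ± 0.044 at 2 h. *Ugp2*, which makes the UDP-glucose that *Ugdh* uses, rose by 0.69 ± 0.061 at 1 h, and *Gfpt2*, a first-step enzyme of the hexosamine pathway, by 2.47 ± 0.37 at 4 h on 1 to 40 counts a library.

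Of 5 tested genes for degradation, 4 rose, in contrast to the fall of *Hyal1*. Among them were *Cemip* (1.03 ± 0.071 at 8 h) and *Tmem2* (1.11 ± 0.049 at 2 h), which act on hyaluronan outside lysosomes, and *Hexa* (1.04 ± 0.047 at 2 h), which codes for a lysosomal hexosaminidase subunit. *Cemip* first stood lower, at 10.9 ± 0.75 CPM at 2 h beside 22.0 ± 1.61 at 0 h, before 44.8 ± 1.16 at 8 h. Of the receptors 3 of 3 were called: *Layn* rose by 0.83 ± 0.060 and *Hmmr* fell by 0.99 ± 0.050 at 4 h, and *Stab2* rose by 0.85 ± 0.23 at 2 h on 12 to 60 counts. *Hmmr* also marks dividing cells.

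Link proteins and aggregating proteoglycans mostly fell, while *Vcan* rose. Of 4 tested, 3 fell and 1 rose. *Hapln1*, the cartilage link protein, had 23.0 ± 2.96 CPM at 0 h and 9.26 ± 0.15 at 8 h (−1.3 ± 0.087). *Hapln3* changed by −1.28 ± 0.22 at 8 h and *Acan*, aggrecan, by −1.77 ± 0.48 at 24 h on 1 to 16 counts a library. *Ncan* was not tested in NT. Of the heavy chain and cross-linking genes, 4 of 5 tested rose. *Ptx3*, a pentraxin that joins TSG-6 and heavy chains into hyaluronan networks, rose by 3.03 ± 0.049 at 4 h, from 203.3 ± 6.09 to 1654 ± 8.51 CPM. The heavy chain genes *Itih2* (0.97 ± 0.045) and *Itih5* (2.73 ± 0.15) were highest at 24 h, and *Itih3* was called on 0 to 41 counts a library.

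**Figure D5:**
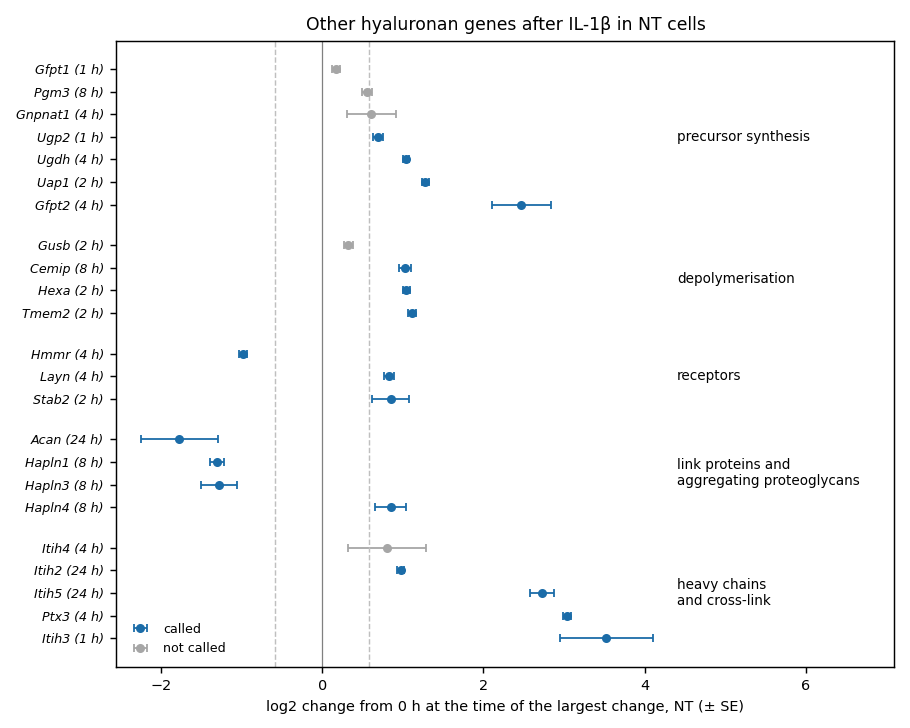
Fitted log2 change from 0 h in NT (± SE) for the tested genes of the wider list except 1 that is not reported here, each at the time of its largest change, with called genes in blue, others in grey and dashed lines at 1.5-fold. Precursor, degradation and heavy chain genes lie to the right, with *Ptx3* at 3.03, and 3 of 4 link protein and proteoglycan genes lie to the left.

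Between the siRNA arms, 27 genes of the wider list were tested over the 6 times and 5 were called, all lower in IFT88siRNA: *Cemip*, *Hapln3*, *Hapln4*, *Acan* and *Ncan*, against the 5.19% given above. *Cemip* is the best measured of them, with 106 to 1180 counts a library. It stood at 16.5 ± 1.41 CPM in IFT88siRNA and 22.0 ± 1.61 in NT at 0 h, and at 5.65 ± 1.04 and 10.9 ± 0.75 CPM at 2 h (log2 difference −0.95 ± 0.12, joint adjusted p = 4.831e-13). *Acan* and *Ncan* had at most 16 counts in any library. In the difference of responses 1 of 27 was called, *Ptx3*, against the 1.2% of all genes given above. It stood at 1443, 1393 and 1437 CPM at 8 h in NT and 1218, 1085 and 1069 CPM in IFT88siRNA, from 196.4 to 208.0 and 233.3 to 258.9 CPM at 0 h. Its rise at 8 h was smaller by 0.61 ± 0.090 on the log2 scale (joint adjusted p = 0.0002769). The level at 8 h differed by −0.34 ± 0.063, which was not called, and the rise is taken from the differing 0 h levels.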

How the data were processed

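RNA of the 36 libraries was poly(A) selected and read as paired ends. Per the labels and the methods of the study, the authors aligned reads to GRCm38 with HISAT2 2.1.0 and deposited counts per gene made with featureCounts (Subread 1.6.3) without strand, which by default leaves out read pairs that overlap more than 1 gene. They also deposited TPM values estimated with Salmon 0.9.1. The siRNA concentration is given as 50 nM in the labels and 10 nM in the methods. Each library was assigned to its group and replicate by its labels, and no batch is given.

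Counts were tested in R 4.3.3 with edgeR 4.0.16 (TMM scaling, low genes removed by filterByExpr, quasi-likelihood F-test, Benjamini-Hochberg adjustment over all genes tested). Each siRNA arm was fitted alone for IL-1β, all 36 libraries together for the siRNA difference over time and for the difference of responses, and 6 libraries at a time for the difference at each time point. A joint test covers all times, and its fold change is the largest of them. Genes were called at an adjusted p under 0.05 and a change over 1.5-fold, the thresholds of the study, and the standard error was derived from the F statistic. The tests differ: the study used ImpulseDE2 for the time courses, which was not run here, and DESeq2 for single times. Counts of genes called are therefore not directly comparable with those of the study. CPM used TMM-scaled totals, which lay between 0.8916 and 1.116 of the library totals. Alternatives were DESeq2 1.42.0, RLE and upper-quartile scaling, no filter, no fold threshold, a replicate block, each replicate number left out, and limma 3.58.1 on log2(TPM + 1) or log2(TPM + 0.1) for genes of at least 1 TPM in at least 3 libraries, also without that filter. Fold changes on the TPM scale understate those of low genes. The tests were first checked on simulated data.

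The 9 members and the 35 further genes were chosen with earlier results of these data known. All members were named, the wider list was named by up to 4 genes per role with the largest change among those called, with *Hapln4* and the genes given as counts only named in addition, and for each member up to 3 genes with the highest Pearson correlation over the 12 condition means. Values of 1 gene of the wider list are not reported here. *Cemip2* stands under its older symbol *Tmem2*. Gene positions are from GENCODE on GRCm38. Promoters of *Has2*, *Has3* and *Prg4* were not analysed here. No 2 replicates agreed within sampling noise (chi-square per degree of freedom 1.65 to 10.0).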

Additional observations from a re-analysis of the deposited data

Results flagged for a closer look

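No member was called for a difference between the 2 siRNA arms in its response to IL-1β over the 5 times together, and 3 genes passed part of the tests of that difference. The rise of *Has2* was smaller in IFT88siRNA, with a largest difference of −0.42 on the log2 scale at 8 h (adjusted p = 0.002715 over the 5 times together), which did not pass the fold threshold. That adjusted p was 0.1999 without replicate 1 and 0.06226 without replicate 2. *Prg4* rose by less at 8 h in IFT88siRNA, with a difference of −1.17 (adjusted p = 0.01943 at that time and 0.05331 over the 5 times together). Its adjusted p at 8 h was 0.1044, 0.07365 and 0.3079 without replicate 1, 2 and 3. *Ptx3*, of the wider list, had a largest difference of −0.61 at 8 h (adjusted p = 0.0002769 over the 5 times together) and was called. Its level itself differed between the arms by −0.34 at most, at 8 h, which was not called, and at 0 h it stood higher in IFT88siRNA. The alternatives were run gene by gene for the members only, so the dependence of the *Ptx3* call on them was not tested.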

How the results depend on the processing

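Of the 68 member changes that were called, none turned direction under an alternative, and of the values under the alternatives 751 kept their call and 54 lost it. Dropping the fold threshold reuses the same fit and cannot lose a call, so its 68 values among the 751 were fixed in advance. Values where a gene could not be tested are not counted. Over the comparisons, 213 counts of called members stayed within 1.5 times of the reported one and 33 did not. Without the fold threshold the members called were 5 at 1 h in NT and 5 at 1 h in IFT88siRNA, 7 for the siRNA difference over the course, 1 for the difference of responses, and 2, 2, 1, 2, 5 and 3 for the siRNA difference at 0, 1, 2, 4, 8 and 24 h. On log2(TPM + 1), with or without the filter, 1 was called at 1 h in IFT88siRNA and 0 for the siRNA difference over the course and at 8 h; without the filter 3 were called at 24 h in NT. On log2(TPM + 0.1) the siRNA difference had 1 over the course and 0 at 8 h. The difference of responses had 1, *Prg4*, with DESeq2, with upper-quartile scaling, without the filter and with the replicate block. The siRNA difference at 8 h had 2 with upper-quartile scaling, 2 without the filter and 2 with all 36 libraries in 1 model, and that at 4 h had 1 without the filter. Leaving out 1 replicate number gave 1 to 2 members at 1 h in NT, 1 to 3 for the siRNA difference over the course, 0 to 4 at 8 h and 0 to 1 at 24 h. The causes were not tested.

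Same-numbered libraries of the arms did not deviate together: the correlation of their deviations was −0.13 to 0.22 over 18 pairs and over 0.1 in 2, so the numbers were not taken to pair them. The replicate block changed no other count of called members, and of the counts over all genes it moved that at 2 h from 73 to 115. Over all genes, the 868 called for the siRNA difference became 5314 without the fold threshold, 451 without replicate 1, 575 without replicate 2, 421 on log2(TPM + 1) and 367 without its filter. The 201 called for the difference of responses became 345 without the filter, 924 without the fold threshold, 62 without replicate 1 and 115 on unfiltered TPM. For the single times the counts over all alternatives ran from 75 to 2979 around 341 at 0 h, 51 to 2808 around 393 at 1 h, 8 to 407 around 73 at 2 h, 13 to 570 around 64 at 4 h, 22 to 644 around 105 at 8 h and 34 to 1318 around 175 at 24 h. Without the fold threshold the time course had 14188 genes in NT, from 8017, and 13875 in IFT88siRNA, from 7781. Upper-quartile scaling moved the median change of all genes by at most 0.121 on the log2 scale, at 4 h in NT, and RLE by at most 0.015. *Has1*, *Has3* and *Prg4* are limited by their low counts.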
